A study of Mus musculus with 3 samples.

Results

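The antioxidant enzymes of the aorta were described in mice labelled Plk1(+/-), on 3 two-colour oligonucleotide arrays. The genes were chosen by symbol: glutathione S-transferases (Gsta, Gstm, Gstt, Gstp, Gsto, Gstk and Gstz), glutathione peroxidases (Gpx), both subunits of glutamate-cysteine ligase (Gclc and Gclm), peroxiredoxins (Prdx) and every symbol that starts with Txn. Sod1, Sod2, Sod3, Cat, Nqo1, Hmox1, Srxn1, Nfe2l2 and Keap1 were added by name. This gave 74 of the 27670 gene names on the array, measured by 120 of its 41174 probes. Of these 74 genes, 5 entered through an updated symbol (Gstp3, Gstt4, Gpx8, Txndc15 and Txndc16), and 8 entered through an older Txn symbol and appear under their current names (Erp44, Glrx3, Nme8, Nxnl1, Tmx1, Tmx2, Tmx3 and Tmx4).

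Each array carried aorta RNA of 1 sample labelled Plk1(+/-) in the Cy5 dye against RNA pooled from 3 wild-type aortas in Cy3. Both genotypes were of the 129/CD1 strain and 3 to 5 months old, and the 3 heterozygous samples are labelled as biological replicates. Plk1 is polo-like kinase 1, a mitotic kinase, and the label marks 1 mutant and 1 normal allele. How the mutant allele was made is not given in the sources used here, and a protocol for growing embryonic stem cells stands in the labels although the tissue is labelled aorta. All values are log2 ratios of Cy5 over Cy3, so a positive value means more signal in the heterozygous sample, and sets of 3 values follow the order of samples 1, 2 and 3. The pool is a single control sample, so its own spread is unknown. Dyes were not swapped, so a dye effect and a genotype effect cannot be told apart.

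The Plk1 probe itself had ratios of -0.06, -0.08 and 0.42, a mean of 0.10 ± 0.28 (SD, n = 3; limma adjusted p = 0.705), and whether it lies in the altered part of the gene is unknown. Between 66.0% and 69.0% of the 43379 gene spots were well above background in Cy3 and between 77.0% and 80.8% in Cy5. All 8 smooth muscle markers of the aortic wall were above background, and the 7 of them without a saturated spot were negative on all 3 arrays, with list medians of -0.46, -1.62 and -1.05. Lymphocyte markers had medians of 0.14, 1.33 and 1.65, and skeletal muscle markers -0.72, -0.88 and -3.03. Among the markers of these 3 lists without a saturated spot, 0 passed the test (adjusted p under 0.05 in limma). At an unadjusted p under 0.05 there were 7 smooth muscle and 5 skeletal muscle markers lower and 6 lymphocyte markers higher. In whole tissue, fewer cells of a type and less RNA per cell cannot be told apart.

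Antioxidant enzymes work in linked cycles. Superoxide dismutases turn superoxide into hydrogen peroxide, which catalase, the glutathione peroxidases and the peroxiredoxins then remove. Glutathione, built by glutamate-cysteine ligase and glutathione synthetase, supplies electrons to the glutathione peroxidases and is joined to foreign or damaged molecules by the glutathione S-transferases, while thioredoxin and its reductase recharge the peroxiredoxins. The transcription factor Nrf2 (gene Nfe2l2), held in check by Keap1, drives many of these genes through antioxidant response elements in their promoters. In the vessel wall these enzymes limit the loss of nitric oxide to superoxide, and the extracellular dismutase Sod3 is abundant there.

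What the array reports for these genes depends on which probe is read, and the probes of 3 genes are shown for that reason. Each is 60 bases long, and the first 30 bases are printed 5′ to 3′ in lower case as in the array files. Positions are those of the files, in mouse build mm7, and whether a probe lies in an exon or a UTR was not analysed here. The bright Sod1 probe lies at chr16:90276179-90276238, and its other probes, assigned by the array design to a different cDNA record, lie at chr16:90273863-90273922 and chr16:90272955-90273014. The Gstp1 probes lie at chr19:3930292-3930351 and, across a gap, chr19:3930714-3931529. The Prdx4 probes lie at chrX:150131445-150131504 and chrX:150138058-150138117.
Sod1 probe 1 (bright): cagtaaacattccctgtgtggtctgagtct
Sod1 probe 2: ccttcttaaaagccaaggtctttaaatgtg
Sod1 probe 3: gtattttatttagtatcaagtattgcttgc
Gstp1 bright probe: gcccaagatcaaggcctttctgtcctcccc
Gstp1 second probe: cgcggcaaatatgtcaccctcatctacacc
Prdx4 bright probe: actggggccaataaggattcctcttctttc
Prdx4 second probe: aaagccaagccgatttgcctccgtaaacat

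Few antioxidant genes stood apart from the wild-type pool, and no ratio without a saturated spot passed the test. Of the 120 probes, 111 probes of 69 genes were well above background in at least 1 dye on 2 of the 3 arrays. Gsta2, Gpx5, Gpx6, Nme8 and Txndc2 had no such probe. At an adjusted p under 0.05 (limma, over all 32497 probes tested), 3 antioxidant probes were called, those of Sod1, Sod2 and Gpx1, against 0.662% of all probes. All 3 probes were saturated, and 30.9% of all saturated probes were called. Among the 102 antioxidant probes without a saturated spot, which cover 65 genes, 0 were called, and the lowest adjusted p was 0.157. Calls were also rare among all 31901 probes of the array without a saturated spot, with 10 higher and 21 lower. The counts of 0 for single groups and lists below are to be read beside that share. At an unadjusted p under 0.05, 6 of these probes were higher and 6 were lower, or 11.8% together. The background for the same count was 8.98% higher and 8.95% lower among all 31901 probes without a saturated spot. A probe above background in 1 dye only passes through the group where it is high, and 5 of the 102 were of that kind, above background in Cy5 but on no array in Cy3. Without them 5 of 97 probes were higher and 6 were lower, against 8.55% and 9.57% of all 28201 probes above background in each dye. These counts rest on loess within each array. Centring the arrays on their medians gave 59 antioxidant calls, 50 higher and 9 lower, and 13609 calls over all probes. It moved the median of all probes from 0.03 to 0.18 and that of the antioxidant probes from -0.0069 to 0.34, so the directions given here are those under loess, and many of the negative means turned positive with median centring.

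Most antioxidant ratios also lay close to 0. The 102 probes ranged from -0.50 (Nxnl1) to 0.45 (Gstp3) with a median of -0.0069, where the median of all such probes on the array was 0.03. Both ends depended on the processing: with the scanner software's log ratio Nxnl1 was -0.89 and Gstp3 1.05, and with median centring Gstp3 was 0.22. In samples 1, 2 and 3 the antioxidant medians were 0.03, 0.04 and -0.03. A mean ratio within 0.25 of 0 was found for 88 of 102 probes, or 86.3%, against 80.0% of all probes. Positive values on all 3 arrays were seen for 15 antioxidant probes and negative values on all 3 for 16. The background was 25.6% positive and 18.7% negative.

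**Figure D1:**
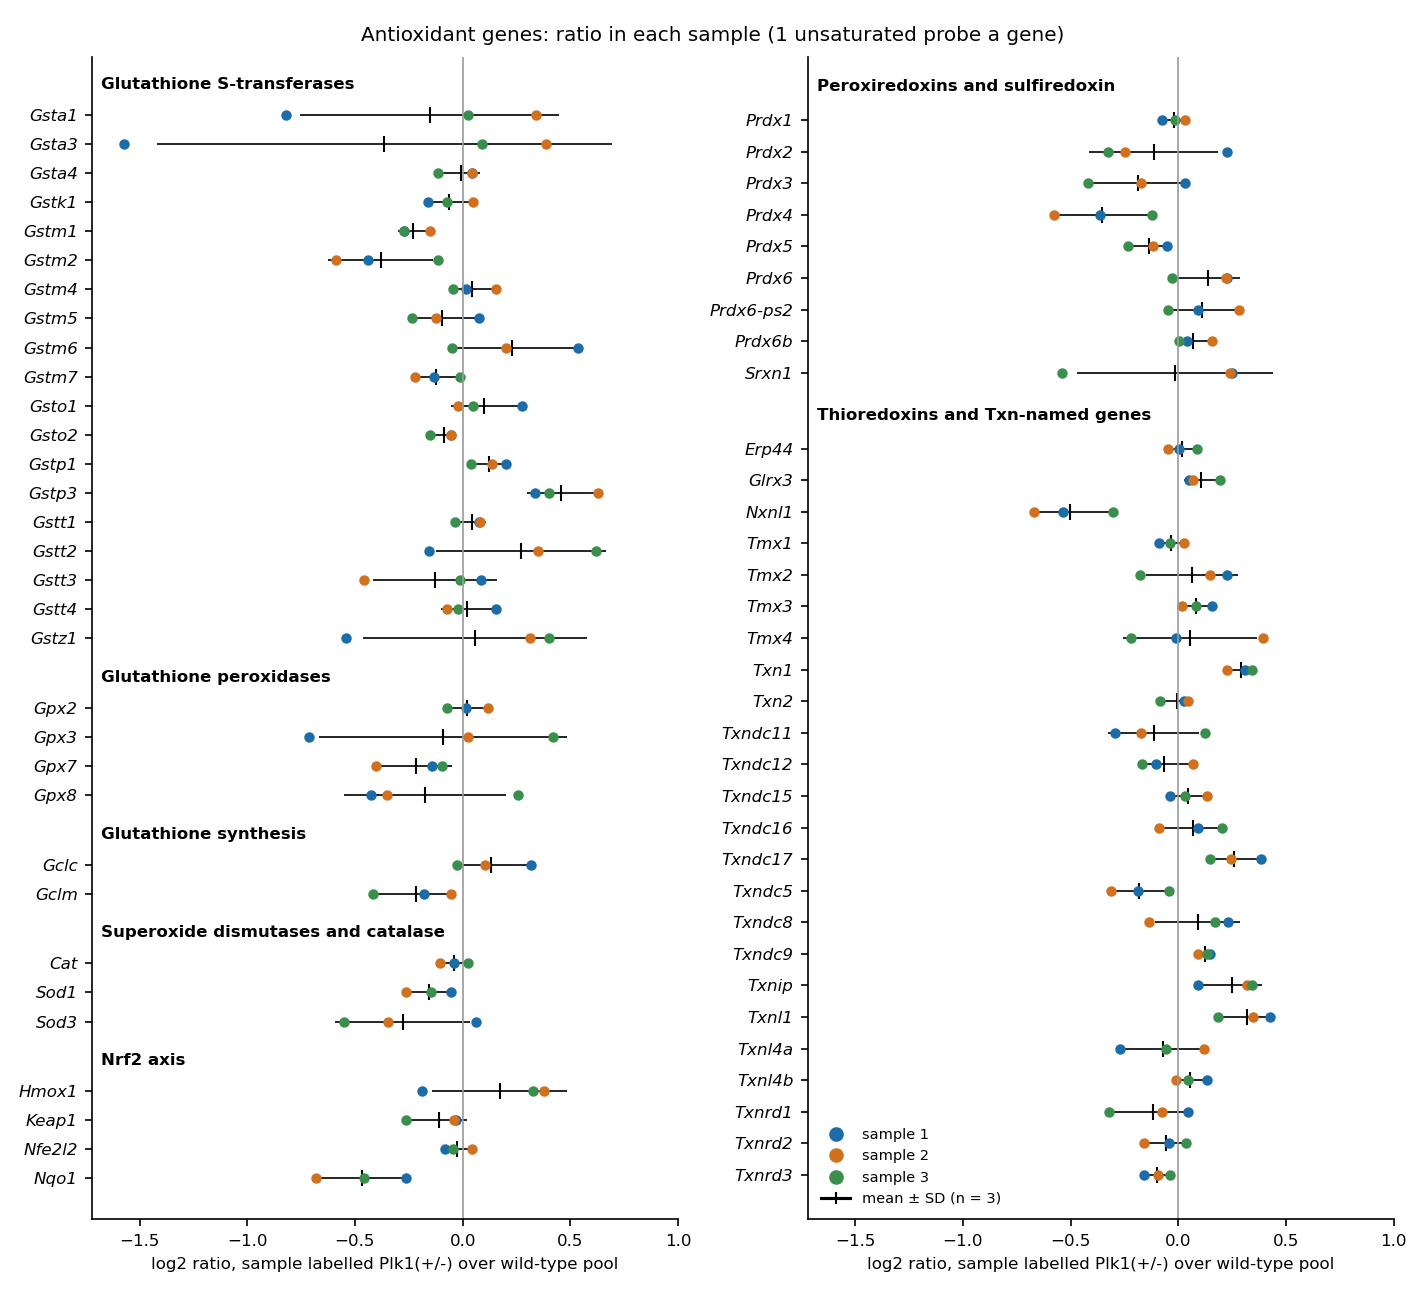
Log2 ratio over the wild-type pool (x axis) of each antioxidant gene with a probe free of saturated spots (y axis, grouped by role), with 1 point for each of the 3 samples labelled Plk1(+/-) and the mean. Most points lie near 0, and the means run from -0.50 for Nxnl1 to 0.45 for Gstp3.

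The dismutases gave the lowest mean ratios of the set, and these came from spots at the scanner's limit. Sod1, the copper-zinc enzyme of the cytosol, had a Cy5 signal of 65220 on all 3 arrays, with Cy3 signals of 64530, 64380 and 59020. Its ratios after normalisation were -1.44, -1.42 and -1.34, with an adjusted p of 0.00756. Sod2, the manganese enzyme of mitochondria, read 65220 in Cy5 and 64630, 65190 and 64900 in Cy3, with ratios of -1.44, -1.43 and -1.48 and an adjusted p of 0.00687. Both dyes were marked saturated for Sod2. Gpx1, the main cytosolic glutathione peroxidase, also read 65220 in Cy5 on each array against 44890, 44850 and 42190 in Cy3, with ratios of -0.91, -0.89 and -0.86 and an adjusted p of 0.0214. A saturated Cy5 signal can only be too low, so the ratio of Gpx1 before normalisation is a lower limit. The Cy3 signals of Sod1 were not marked saturated but lay close to the limit, and Sod2 was saturated in both dyes. No bound is given for these dismutases. No fold was given for Sod1, Sod2 or Gpx1. With 1 sample fewer, calls were lost while the ratios of Sod2 and Gpx1 hardly moved. Their Cy5 signals were at the scanner's limit on each array, so these steady ratios are no measure of agreement between samples. Without sample 1 there were 2 antioxidant calls, and without sample 2 or without sample 3 there were 0, as there were over all 32491 probes tested, of which 2818 and 4642 had an unadjusted p under 0.05 in limma. Leaving out samples 1, 2 and 3 in turn, Sod2 had means of -1.46, -1.46 and -1.44 and Gpx1 had -0.88, -0.89 and -0.90.

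Another 6 antioxidant probes had saturated spots. Gpx4, the phospholipid hydroperoxide peroxidase, had ratios of -0.88, -1.36 and -0.96 with Cy5 saturated on each array (adjusted p = 0.0653). The saturated probe of Gstp1 gave -0.66, -0.67 and -0.24, and that of Gstm1 gave -0.46, -0.38 and -0.39. Gstm3 (-0.19, -0.16 and -0.16), Prdx2 (0.08, -0.31 and -0.15) and Glrx3 (0.21, -0.10 and 0.28) had saturated probes too. Where such a gene had another probe without saturated spots, that probe lay nearer to 0 or on its other side. Sod1 probe 2 gave -0.06, -0.26 and -0.15, a mean of -0.16 ± 0.10 (SD, n = 3; adjusted p = 0.344), and Sod1 probe 3 had a mean of 0.02. Sod1 probes 2 and 3 were far dimmer, with mean log2 intensities of 8.69 and 7.11 against 15.96 for the bright probe. Whether they read the same transcript as the bright probe is unknown, and probe 2 stands for Sod1 in the gene counts. The second Gstp1 probe gave 0.20, 0.13 and 0.04, positive on each array. The second Gstm1 probe stayed negative at -0.27, -0.15 and -0.27, a mean of -0.23 ± 0.07 (SD, n = 3; adjusted p = 0.217).

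**Figure D2:**
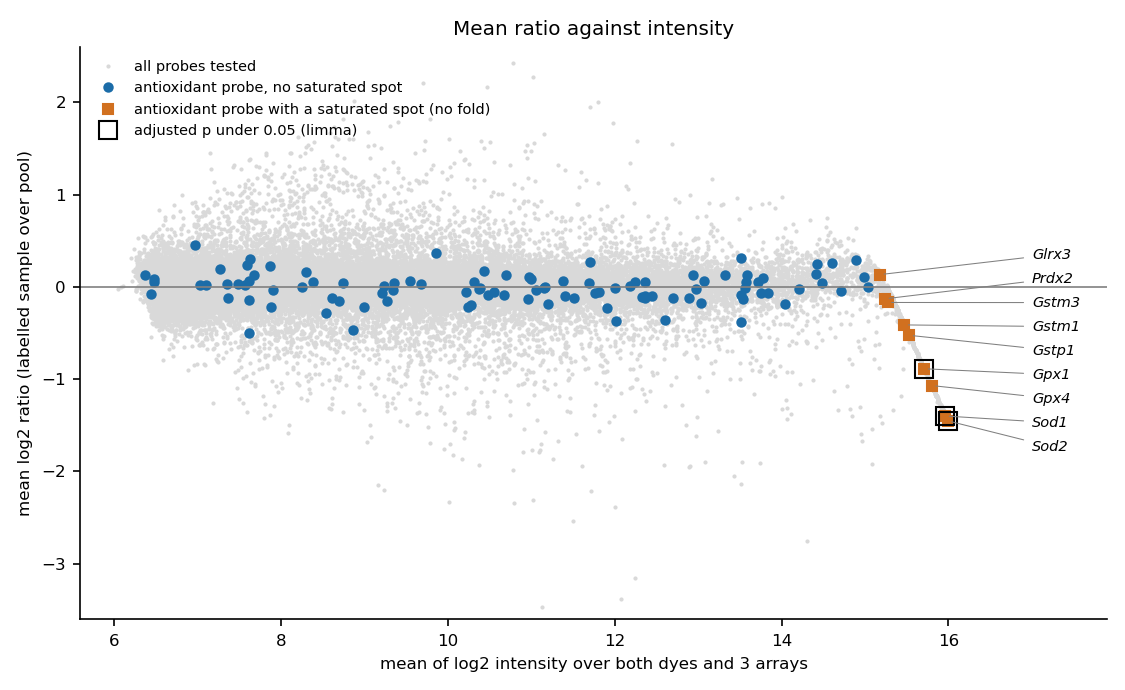
Mean log2 ratio (y axis) against mean log2 intensity over both dyes and the 3 arrays (x axis) for all probes tested (grey), antioxidant probes without saturated spots (blue circles) and with them (orange squares), with black frames for an adjusted p under 0.05. The saturated probes lie on a line that falls with intensity, from Glrx3 to Sod2, and the 3 framed probes of Sod1, Sod2 and Gpx1 are on it.

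The remaining dismutase and catalase had no saturated spot. Sod3, the secreted dismutase of the vessel wall, had ratios of 0.06, -0.35 and -0.55, a mean of -0.28 ± 0.31 (SD, n = 3; adjusted p = 0.349). Samples 2 and 3 were below the pool and sample 1 was not. Catalase, the peroxisomal enzyme that splits hydrogen peroxide, gave -0.04, -0.11 and 0.02, a mean of -0.04 ± 0.06 (SD, n = 3), with 1 sample above 0 and the others below it.

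Of 21 glutathione S-transferase genes, 19 had a probe without saturated spots, and 0 of their 23 such probes passed the test. At an unadjusted p under 0.05, 2 were lower, and the 1 that was higher, Gstp3, was above background in Cy5 only. The median was -0.0085. The probe with the highest mean was that of Gstp3, a pi-class gene beside Gstp1, at 0.34, 0.63 and 0.40, a mean of 0.45 ± 0.16 (SD, n = 3; adjusted p = 0.157). Its Cy3 signal was not well above background on any array, so it entered the test through Cy5 alone. Under loess its mean was 1.37-fold higher in the heterozygous samples. The lowest signal above background did not exceed its own Cy3 signal, so no separate bound was obtained. With median centring its mean log2 ratio was 0.22. The mu-class gene Gstm2 lay lowest at -0.44, -0.59 and -0.11, a mean of -0.38 ± 0.24 (SD, n = 3; adjusted p = 0.217). All 3 samples were below the pool for Gstm2 and above it for Gstp3. Gstm6 gave 0.53, 0.20 and -0.05, and its samples lay on both sides of 0. The mu-class genes lie side by side on chromosome 3, and the longest run of bases shared by the probes of any 2 of them was 10, between Gstm5 and Gstm6.

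Among the transferases, Gsta3, Gsta1, Gstz1 and Gstt2 varied most between samples. Gsta3, an alpha-class enzyme, had ratios of -1.57, 0.39 and 0.09, and its second probe gave -1.13, 0.55 and 0.23. Both probes were far below the pool in sample 1 alone, so the SD of the first probe, 1.06, exceeded the size of its mean, -0.36. Gsta1 gave -0.82, 0.34 and 0.02. Gstz1, the maleylacetoacetate isomerase of tyrosine breakdown, gave -0.54, 0.31 and 0.40, and Gstt2 gave -0.16, 0.35 and 0.62. In these 4 genes sample 1 was the lowest, and they were named after their values were seen. Sample 1 was also lowest in the brown fat list: all 8 brown fat markers were above background, and the medians of the 4 without saturated spots were -0.54, 0.32 and 0.38. The lymphocyte list was lowest in sample 1 too, with medians of 0.14, 1.33 and 1.65. The medians of 4 liver markers were -1.41, 1.35 and -1.41, so there sample 2 differed from the others. The part of these cell types in the transferase values was not tested. The transferases not named so far had means from -0.13 (Gstt3) to 0.10 (Gsto1).

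The glutathione peroxidases without saturated spots were Gpx2, Gpx3, Gpx7 and Gpx8, and 0 of 4 had an unadjusted p under 0.05. Gpx3, the secreted plasma form, had ratios of -0.71, 0.02 and 0.42, with sample 1 below the pool and sample 3 above it, and a mean of -0.09 ± 0.58 (SD, n = 3). Without sample 1 its mean was 0.22. Gpx7, an enzyme of the endoplasmic reticulum, was below the pool in each sample at -0.14, -0.40 and -0.10 (adjusted p = 0.3). Gpx8, its membrane-bound relative, gave -0.43, -0.35 and 0.26. Gpx2, best known from the gut, gave 0.01, 0.12 and -0.07.

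Both subunits of glutamate-cysteine ligase, the rate-limiting step of glutathione synthesis, were measured without saturation. Gclc, the catalytic subunit, gave 0.32, 0.10 and -0.02, a mean of 0.13 ± 0.17 (SD, n = 3; adjusted p = 0.473). Gclm, the modifier subunit, gave -0.18, -0.05 and -0.41, a mean of -0.22 ± 0.18 (SD, n = 3; adjusted p = 0.314). Gclc was positive in 2 of 3 samples and Gclm negative in 3 of 3, and neither passed the test.

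Nfe2l2 and Keap1 were near 0. The brightest Nfe2l2 probe gave -0.08, 0.04 and -0.05, and the means of its 4 probes ran from -0.06 to 0.30. The highest of them was positive on each array at 0.19, 0.31 and 0.39, with an unadjusted p of 0.013 and an adjusted p of 0.191. It was dim, with a mean log2 intensity of 7.64 against 12.98 for the brightest probe, and was assigned to a different cDNA record. Keap1 gave -0.03, -0.04 and -0.26 (adjusted p = 0.498). Nqo1, a quinone reductase used as a readout of Nrf2 activity, was lower than the pool on each array at -0.26, -0.68 and -0.46, a mean of -0.47 ± 0.21 (SD, n = 3; adjusted p = 0.174). Hmox1, heme oxygenase 1, gave -0.19, 0.38 and 0.33, a mean of 0.17 ± 0.31 (SD, n = 3; adjusted p = 0.528). Its sample 1 was below the pool and the other samples were above it. Of the 7 probes of these 4 genes, 0 passed the test.

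The peroxiredoxins reduce peroxides through a reactive cysteine, and sulfiredoxin (Srxn1) repairs them once that cysteine is over-oxidised. Of 16 probes without saturated spots, 0 were called, 0 were higher and 1 was lower at an unadjusted p under 0.05. That probe was the bright one of Prdx4, the form of the endoplasmic reticulum, at -0.36, -0.58 and -0.12, a mean of -0.35 ± 0.23 (SD, n = 3; adjusted p = 0.222). The second Prdx4 probe gave 0.24, 0.03 and 0.32, so both probes held their sign on all arrays but in opposite directions. The second probe was dim, with a mean log2 intensity of 7.27 against 12.6, and was assigned to a different cDNA record. Prdx3, the mitochondrial form, gave 0.03, -0.17 and -0.42, and Prdx5, found in several compartments, gave -0.05, -0.12 and -0.23. Prdx6, which draws on glutathione, gave 0.23, 0.22 and -0.03. The cytosolic Prdx1 lay at -0.08, 0.03 and -0.02.

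Srxn1 showed 1 sample apart in each of its 3 probes. Its bright probe gave 0.25, 0.24 and -0.54, and the others gave 0.21, 0.25 and -0.38, and 0.13, 0.24 and -0.45. Sample 3 was below the pool in each probe and samples 1 and 2 were above it. Prdx2 had its probes without saturated spots at 0.23, -0.25 and -0.33 and at 0.18, -0.20 and -0.28, so there sample 1 stood above the others. All 8 white fat markers were above background, and the 3 without saturated spots had medians of 0.06, 0.16 and -0.65. Skeletal muscle markers (-0.72, -0.88 and -3.03) and endothelial markers (0.05, -0.05 and -0.20) also had their lowest median in sample 3. Brown fat markers had their highest median there (-0.54, 0.32 and 0.38). Red cells hold much Prdx2, and 5 red cell markers, all negative in each sample and 1 of them called, had medians of -0.49, -1.09 and -0.81. The red cell median was highest in sample 1, like Prdx2, but lowest in sample 2, whereas Prdx2 was lowest in sample 3. The smooth muscle, skeletal muscle, fibroblast and endothelial medians were also highest in sample 1. The part of any of these cell types in the Srxn1 and Prdx2 values was not tested.

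**Figure D3:**
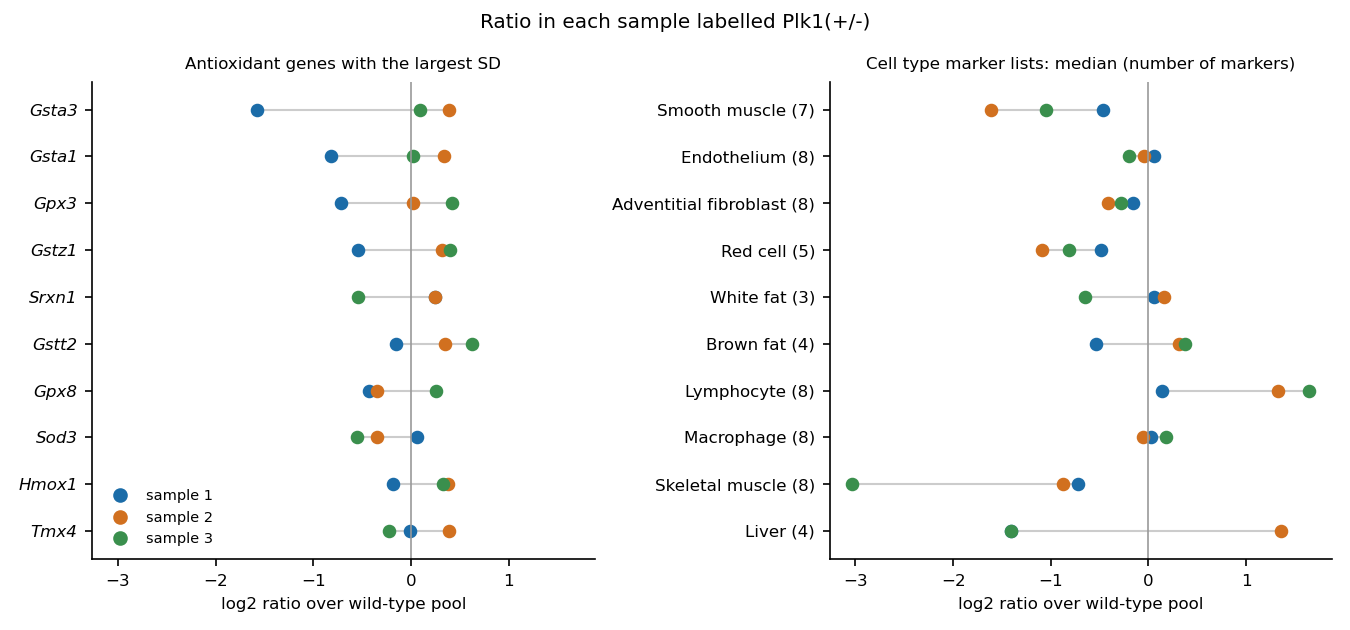
Log2 ratio over the wild-type pool (x axis) in each of the 3 samples labelled Plk1(+/-), for the 10 antioxidant genes with the largest SD (left) and as medians of marker lists with the number of markers in brackets (right), with grey lines from the lowest to the highest sample. Gsta3, Gsta1, Gpx3 and Gstz1 are lowest in sample 1, and Srxn1 is lowest in sample 3.

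Thioredoxin-related genes made up 26 of the 74 genes, and 0 of their 46 probes without saturated spots passed the test, with 4 higher and 2 lower at an unadjusted p under 0.05. Txn1, cytosolic thioredoxin, was above the pool with little spread, at 0.31, 0.23 and 0.34, a mean of 0.29 ± 0.06 (SD, n = 3; adjusted p = 0.180). Txnl1, a thioredoxin-like protein bound to the proteasome, gave 0.42, 0.35 and 0.18 (adjusted p = 0.191), while its second probe gave 0.38, -0.08 and -0.30. Txndc17, a thioredoxin relative, gave 0.38, 0.24 and 0.15 (adjusted p = 0.221). Txn1, the bright Txnl1 probe and Txndc17 were above the pool in 3 of 3 samples. The bright probe of Txnip, an inhibitor that binds thioredoxin, gave 0.09, 0.32 and 0.34 (adjusted p = 0.236), and its second probe gave 0.01, 0.16 and -0.24.

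Nxnl1, a thioredoxin-like gene known from photoreceptors, had the lowest mean among probes without saturated spots, with -0.54, -0.67 and -0.30, a mean of -0.50 ± 0.19 (SD, n = 3; adjusted p = 0.157). Nxnl1, Gstm2, Nqo1 and Prdx4 were among the 20 of 65 genes with their lowest value in sample 2. The medians of 4 marker lists were lowest there too. These were smooth muscle (-1.62), red cells (-1.09), macrophages (0.02, -0.05 and 0.18 in samples 1 to 3) and adventitial fibroblasts. The fibroblast list had medians of -0.16, -0.42 and -0.29, with 5 of 8 markers lower at an unadjusted p under 0.05 in limma. The part of these cell types in the 4 genes was not tested. Mitochondrial Txn2 lay near 0 at 0.03, 0.04 and -0.09. The reductases that recharge thioredoxin gave 0.05, -0.08 and -0.32 for cytosolic Txnrd1 and -0.05, -0.16 and 0.04 for the bright probe of mitochondrial Txnrd2. The other Txnrd2 probes gave 0.19, 0.13 and -0.33, and 0.07, 0.09 and -0.32, with sample 3 lowest. Txnrd3 gave -0.16, -0.09 and -0.04.

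Probes of the same gene often differed in sign. Of the 24 genes with 2 or more probes without saturated spots, 14 had probe means on both sides of 0. The median distance between a gene's lowest and highest probe was 0.18. The same count over all genes of the array is not given here, so whether 14 of 24 is high or low for this array is unknown. Distances ran from 0.01 (Prdx2) to 0.55 (Prdx4). Besides Sod1, Nfe2l2, Prdx4, Srxn1, Txnip and Txn2, the genes with means on both sides of 0 were Gstm7, Gsto2, Gstt4, Erp44, Tmx2, Tmx3, Txndc5 and Txndc11. The brightest probe of Gstm7 gave -0.13, -0.22 and -0.01 and its second probe a mean of 0.16. Gsto2 gave -0.05, -0.06 and -0.15 with a second mean of 0.06. Gstt4 gave 0.15, -0.07 and -0.02, and its second probe was not above background in Cy3 on any array. Among probes above background in each dye, 13 of 23 genes had means on both sides of 0, and Gstt4 was not among them. The Tmx and Txndc genes and Erp44 encode thioredoxin-fold proteins, many of which act in protein folding in the endoplasmic reticulum. Their brightest probes gave 0.00, -0.05 and 0.09 for Erp44, 0.23, 0.15 and -0.18 for Tmx2, 0.16, 0.02 and 0.08 for Tmx3, -0.19, -0.31 and -0.04 for Txndc5, and -0.29, -0.17 and 0.12 for Txndc11. Their other probes had means of -0.02 and -0.19 for Erp44, -0.08 for Tmx2, 0.03 for Txndc5 and 0.24 and -0.12 for Txndc11. The other Tmx3 probes ran from -0.14 to 0.13. The second Txn2 probe had a mean of 0.05.

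**Figure D4:**
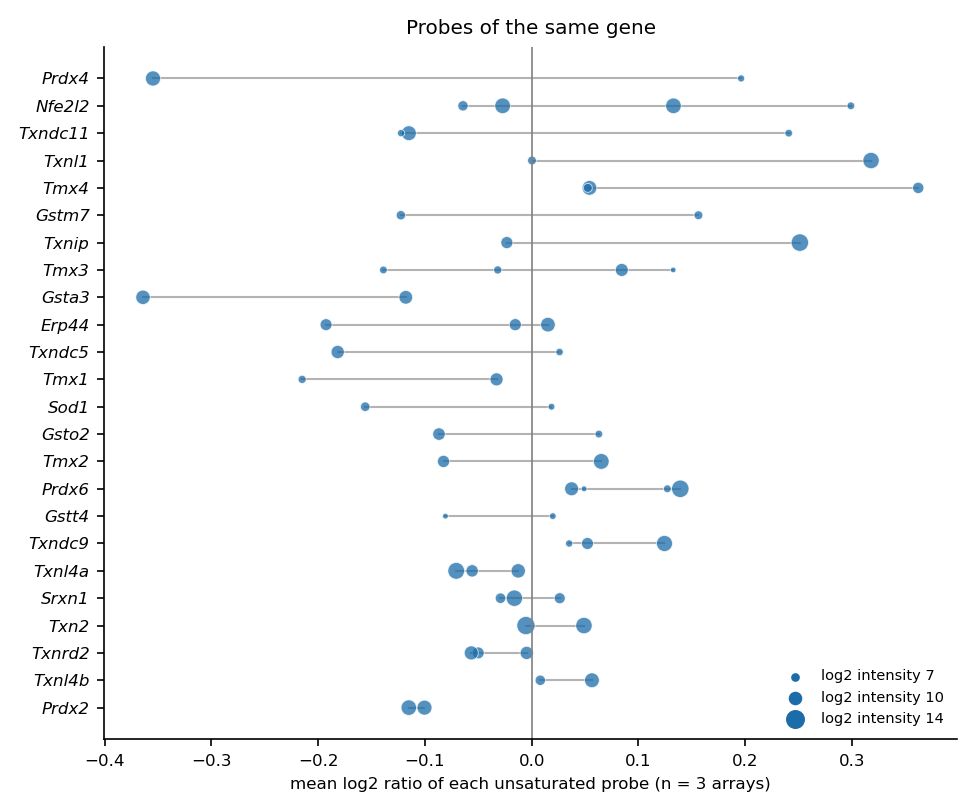
Mean log2 ratio over the wild-type pool of each probe without saturated spots (x axis) for the antioxidant genes with 2 or more such probes (y axis), with a line joining the probes of a gene. For 14 of 24 genes the line crosses 0, and the longest is that of Prdx4 at 0.55.

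The spread between samples differed widely among the 65 genes. The SD over samples was under 0.1 for 22 genes and over 0.3 for 10. The lowest value was in sample 1 for 18 genes, in sample 2 for 20 and in sample 3 for 27. The highest was in sample 1 for 25 genes, in sample 2 for 21 and in sample 3 for 19. All 3 samples thus supplied the extremes.

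Genes that serve the same pathways outside the chosen symbols were read in the same way. A list of 50 such genes, covering glutathione recycling and transport, glutaredoxins, methionine sulfoxide reductases, NADPH supply, iron storage and Nrf2 partners, had 48 genes above background and 44 without saturated spots. Of the 44 genes, 0 passed the test, with 4 higher and 4 lower at an unadjusted p under 0.05 in limma. The background was 8.98% higher and 8.95% lower among all probes without a saturated spot. The median was 0.03, and that of all such probes was 0.03 too. The saturated probes of Taldo1 and Fth1 were called, like those of Sod1 and Sod2. Glrx5, a mitochondrial glutaredoxin of iron-sulfur cluster assembly, gave 0.36, 0.38 and 0.28, a mean of 0.34 ± 0.06 (SD, n = 3; adjusted p = 0.159). Ftl1, the ferritin light chain, gave 0.40, 0.28 and 0.16, and Sesn3, a sestrin, gave 0.17, 0.23 and 0.45. On the lower side, Mafk, a small Maf partner of Nrf2, gave -0.22, -0.33 and -0.39, and Chac1, which breaks down glutathione, gave -0.39, -0.20 and -0.50. Idh2, a mitochondrial source of NADPH, gave -0.24, -0.18 and -0.47. Among the genes of the list without saturated spots, Nnt, which makes NADPH in mitochondria, had the lowest mean. It gave -0.52, -0.23 and -1.18, a mean of -0.64 ± 0.49 (SD, n = 3; limma adjusted p = 0.224), with other probes from -0.43 to -0.18. Gsr, which regenerates reduced glutathione, lay at 0.06, 0.10 and 0.12, and Gss, glutathione synthetase, at 0.19, 0.11 and 0.04.

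The core of the antioxidant response element, TGACNNNGC (GCNNNGTCA on the opposite strand), was searched on both strands from 250 bases before to 50 bases after each gene's start in RefSeq promoters of build GRCm38.p6. Of 63 antioxidant genes with a promoter sequence, 14 held it, or 22.2%, against 14% of all 27025 genes. In 12 of the 14 genes the match lay before the start. For each of them 30 bases are shown on the gene's strand, with the match in capitals, as candidates by sequence within the searched stretch only. Sequence further from the start was not searched, so a gene without a match here may hold the element elsewhere. In Srxn1 and Tmx1 the match lay after the start. The windows lie at chr3:122245412-122245441 (Gclm), chr1:21240453-21240482 (Gsta3), chr3:107895801-107895830 (Gstm5), chr3:107931725-107931754 (Gstm7), chr2:75704884-75704913 (Nfe2l2), chr4:116685455-116685484 (Prdx1), chr16:90220695-90220724 (Sod1), chr2:134644186-134644215 (Tmx4), chr16:11134753-11134782 (Txndc11), chr17:65639941-65639970 (Txndc2), chr13:38528034-38528063 (Txndc5) and chr10:82859103-82859132 (Txnrd1). Gstm7, Nfe2l2, Tmx4, Txndc11, Txndc2 and Txndc5 are on the minus strand and the others on the plus strand.
Gclm: cgctcccgggcGCACCGTCAactctcacga
Gsta3: caactcaggcaTGACATTGCatttttcttc
Gstm5: gcaccgcccacTGACCACGCggagggcggg
Gstm7: gtctgaagaccTGACAAAGCgaagccaatc
Nfe2l2: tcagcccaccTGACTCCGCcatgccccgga
Prdx1: ccagggaaagcGCTGAGTCAtcccccgtag
Sod1: tgccaaggtggGCGTGGTCAgactcaggcc
Tmx4: gtgcgttggggGCGTGGTCAgggtggctgg
Txndc11: gtggaaggcTGACGCGGCcgcgagtgctgc
Txndc2: gctttgaacctTGACCTAGCctagctgtgt
Txndc5: ggcctcgccgcTGACGTGGCgctagccgcc
Txnrd1: actggatttttGCTTTGTCAttctgacacg

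Of the 14 genes with the core, 13 had a ratio without saturated spots, and 12 of the 13 means were negative, from -0.36 (Gsta3) to 0.05 (Tmx4), with a median of -0.12. Of 41 genes without the core in the searched stretch, 21 were negative, with a median of -0.0054. The contrast depended on the scaling and on single samples. With each array centred on its median, 0 of the 13 were negative, and the medians were 0.35 with the core and 0.35 without it. With the scanner software's log ratio the medians were -0.10 and -0.07. Without sample 3 they were -0.03 and -0.02, with 11 of 13 negative. Of the 13 genes, 0 passed the test. A match to these letters is not a measured binding site.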

How the data were processed

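Total RNA was hybridised to 3 two-colour Agilent arrays. The deposited scanner files, written by Feature Extraction 9.5.3.1 according to their headers, hold intensity values for each spot and dye and a log10 ratio. The authors' deposited series values are log2 ratios, and their normalisation is not given in the sources used here. Set against the scanner log ratios, they had slopes from 0.997 to 1.00 and column medians of -0.02, -0.0052 and -0.03, so scale and direction match the scanner output, while any further centring is unknown.

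Background correction of the mean signals (normexp, offset 50) and loess within each array were done in limma 3.58.1 under R 4.3.3. Control and outlier spots were removed, spots of a probe averaged, and probes kept when well above background in either dye on 2 of 3 arrays. The ratio was tested against 0 with limma, with Benjamini-Hochberg adjustment over 32497 probes, and the script was tested on simulated data. The precision is limited by the 3 arrays. All arrays shared 1 slide. A gene's level is that of its brightest probe without saturated spots. Symbols were updated through RefSeq: 22950 probes matched by accession, 6659 by symbol and 3109 by synonym, and 8455 kept the file's name.

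Values were given for genes called, the 4 with the smallest p in each role, 10 fixed genes, and genes whose probes differed in sign. Gsta1, Gsta3, Gstz1, Gstt2, Gstp1, Gstm3, Gpx4, Prdx1, Prdx2, Txnrd1, Txnrd2, Tmx4, Gstt3, Gsto1, Txnrd3 and Nnt were added after their values were seen. The genes and all lists were chosen with earlier results of these data known.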

Additional observations from a re-analysis of the deposited data

How the results depend on the processing

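The 3 antioxidant calls stayed 3 with the deposited series values, without the filter on dim probes and with 1 probe per gene. There were 2 with the scanner log ratio, 4 with an intensity trend and 0 without saturated probes, where 12 had an unadjusted p under 0.05 in limma. Leaving out 1 sample gave 0 to 2. With arrays centred on their medians and no loess there were 59 calls, of which 50 were higher and 9 lower. It also called 13609 of all 32497 probes, 68.5% of them higher against 4.65% of the calls with loess, and moved the median of all probes from 0.03 to 0.18 and that of the antioxidant probes from -0.0069 to 0.34, so every direction in the text holds for loess. The cause was not tested. Among the 53 named antioxidant genes, these means changed sign with median centring: Sod1 0.072, Gstm1 0.21, Gstm2 0.10, Gstm3 0.33, Gstm7 0.089, Gsta1 0.13, Gsta3 0.079, Gsto2 0.30, Gstt3 0.27, Gstt4 -0.18, Gpx3 0.39, Gpx7 0.15, Gpx8 0.30, Gclm 0.045, Keap1 0.35, Nfe2l2 0.45, Prdx1 0.47, Prdx2 0.36, Prdx3 0.30, Prdx4 0.11, Prdx5 0.35, Srxn1 0.47, Cat 0.46, Txn2 0.49, Txndc5 0.23, Txndc11 0.34, Txnrd1 0.35, Txnrd2 0.38 and Txnrd3 0.32. Some antioxidant genes outside these 53 changed sign as well, such as Gstk1 (to 0.42) and Txndc8 (to -0.44). Gstt4 was -0.10 with the scanner log ratio and with the deposited values, and Gstp1 was -0.52 with 1 probe per gene, which takes its saturated probe. Among the 53 named genes, leaving out 1 sample in turn changed the sign of these means, which then ran from -0.35 to 0.22 for Gpx3, -0.015 to 0.19 for Tmx2, -0.047 to 0.066 for Gstt4, -0.40 to 0.18 for Gsta1, -0.74 to 0.24 for Gsta3, -0.046 to 0.0079 for Prdx1, -0.029 to 0.065 for Gpx2, -0.23 to 0.037 for Gstt3, -0.11 to 0.36 for Gstz1, -0.12 to 0.19 for Tmx4, -0.022 to 0.046 for Erp44, -0.15 to 0.25 for Srxn1 and -0.029 to 0.035 for Txn2. The sign changed without sample 1 for Gpx3, Tmx2, Gstt4, Gsta1, Gsta3 and Prdx1; without sample 2 for Gpx2, Gstt3, Gstz1 and Tmx4; and without sample 3 for Gstz1, Erp44, Srxn1 and Txn2. Of 525 values of 53 genes under alternatives, 455 kept their direction and their side of the threshold. The counts limited to probes above background in each dye were chosen after seeing the data. No paired analysis was possible because each array holds 1 heterozygous sample against the same pool.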
